A study of Saccharomyces cerevisiae with 6 samples.

Results

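The left arm of chromosome XIII carries the yeast genes whose systematic names begin with YML, and this name was the rule that chose the members. Of 2850 genes with estimated counts in the files, 82 are on this arm, out of 134 genes of that name in the R64 reference annotation. The members lie between YML131W near the left end and YPT7, whose coding span ends 0.231 kb before the centromere. The arm itself was chosen by measured values, since its genes stood higher in ESI+ than in naive cells in these same libraries. Every level and fold change below therefore describes the arm, and none is independent evidence that it differs from the rest of the genome.

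A yeast chromosome arm is a stretch of neighbouring genes and not a pathway. Each gene usually has its own promoter, and adjacent genes mostly serve unrelated functions, so a list made by position mixes abundant ribosomal and metabolic transcripts with rare transcripts of repair and transcription factors. The arm holds, among others, the replication origin factor ORC1, the repair enzymes OGG1 and UNG1, the sterol enzymes HMG1 and ERG6, both alpha-tubulin genes and 4 cytosolic ribosomal protein genes.

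The study sequenced mRNA of ESI+ diploid cells and of naive cells, with 3 libraries each that the labels call biological replicates. All cells were labelled BY4743, a laboratory diploid of Saccharomyces cerevisiae, and grew in rich glucose medium (YPD) to mid-logarithmic density. [ESI+] is a heritable, protein-based state that was described as changing chromatin near chromosome ends. How the ESI+ diploids were made, and whether the libraries of a group go back to 1 clone, is not given in the sources used here. RNA came from whole cultures, so fewer cells that express a gene and less RNA per cell cannot be told apart.

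The libraries differed in ways that touch the results. Total estimated counts were 1937568, 3896490 and 316485 in ESI+ libraries, against 4361435, 1080941 and 5934050 in naive libraries. The 10 most abundant genes took 20.8, 11.4 and 12.8% of counts in ESI+ libraries, against 31.3, 30.8 and 31.9% in naive libraries. ESI+ replicate 2 stood farthest from the naive mean, and its departures followed abundance. BY4743 lacks a functional URA3, yet URA3 had 17.8, 26.3 and 333 normalised CPM in ESI+ libraries, against 32.3, 20.4 and 255 in naive libraries. By URA3 both libraries numbered 3 thus go against the strain label, and counts without them are given beside the calls. HIS3 had 35.0, 66.4 and 453 normalised CPM in ESI+ libraries, against 32.9, 32.6 and 50.6 in naive libraries. MET17 had 108, 48.7 and 223 in ESI+ libraries, against 109, 61.1 and 54.9 in naive libraries. By HIS3 and MET17 only ESI+ replicate 3 stood out. Of 7 a-specific mating genes looked for, 3 were listed and 1, MFA1, passed the filter, at 3.77, 11.4 and 15.02 normalised CPM in ESI+ libraries, against 1.42, 0 and 0.872 in naive libraries. The MFA1 levels in ESI+ libraries rested on 7, 86 and 6 estimated counts. AGA2, which did not pass the filter, had 1, 96 and 37 estimated counts in ESI+ libraries, against 14, 3 and 5 in naive libraries. MFA2, which also did not pass, had 2, 66 and 0 in ESI+ libraries, against 5, 0 and 1 in naive libraries. The 37 counts of AGA2 were in ESI+ replicate 3, the library of lowest depth. STE4, a haploid-specific gene, had 37.7, 97.8 and 42.6 normalised CPM in ESI+ libraries, against 40.5, 38.0 and 19.0 in naive libraries, with overlapping groups.

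Members supplied a larger part of the messenger RNA in every ESI+ library than in any naive library. They held 2.60, 3.46 and 3.11% of all estimated counts in ESI+ libraries, against 1.497, 1.496 and 1.677% in naive libraries. The groups did not overlap, with means of 3.05 ± 0.433% in ESI+ and 1.56 ± 0.104% in naive libraries (SD, n = 3 each). On the length-corrected TPM scale the share was 2.42, 3.07 and 2.70% in ESI+ libraries, against 1.553, 1.503 and 1.657% in naive libraries. A larger share was common in these data, where the most abundant genes took less of the ESI+ libraries. Among members 73 of 82 (89.02%) had a larger mean share in ESI+ libraries, against 81.3% of all listed genes. The mean share of the left arm was 1.96 times as large in ESI+ as in naive libraries, and the other arms with 50 or more listed genes, the right arm of chromosome XIII aside, ranged from 0.491 to 1.61. The right arm had a ratio of 1.62 and its groups did not overlap either. It held 7.53, 7.86 and 7.04% of counts in ESI+ libraries, against 4.63, 5.05 and 4.18% in naive libraries. Of all 32 arms, 5 had a higher ratio, and none of these 5 held more than 32 listed genes.

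**Figure D1:**
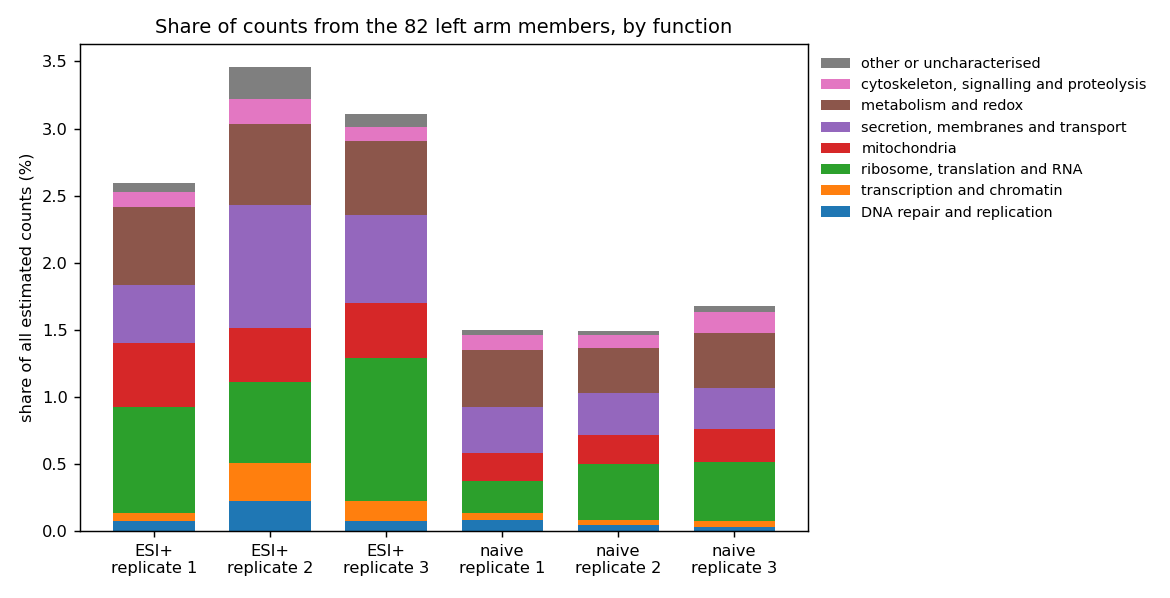
Share of all estimated counts (%, vertical axis) that came from the 82 left arm members in each library, stacked by function, with ESI+ libraries on the left and naive libraries on the right. The ESI+ columns reach 2.60, 3.46 and 3.11%, and the naive columns reach 1.497, 1.496 and 1.677%.

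Averaged over the libraries of each group, abundant members made up much of the gain in share. Genes of the ribosome, translation and RNA group made up 30.4% of this mean gain. Secretion and membrane genes made up 23.3% and mitochondrial genes 13.7%, while the cytoskeleton and signalling group made up 1.01%. The 5 members with the largest gains made up 39.2%. These were MSC1, a mitochondrial protein, the ribosomal protein genes RPS17A, RPS1B and RPL6A, and TCB3, a tricalbin that ties the endoplasmic reticulum to the plasma membrane. MSC1 held 0.207 ± 0.0319% of counts in ESI+ libraries and 0.0632 ± 0.00711% in naive libraries (SD, n = 3 each). None of these 5 passed edgeR's test for a change in the normalised level. The ESI+ libraries differed in which members gained. Over the naive mean the arm gained 1.04, 1.90 and 1.55 percentage points in ESI+ replicates 1, 2 and 3. The ribosome, translation and RNA group gained 0.43, 0.24 and 0.70 of these, and the secretion group 0.12, 0.59 and 0.34. The 14 members called higher by edgeR, mostly rare transcripts, gained 0.08, 0.54 and 0.20. In ESI+ replicate 2 both thus gained more than the ribosome group.

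To set the arm against the other genes of the same library, a deviation was computed for each of the 81 members that passed the filter on low counts. It is the log2 normalised level minus the naive mean, with the median of all 2844 tested genes set to 0, and a naive library was compared with the other two. The median member stood at 0.57, 0.90 and 0.56 in ESI+ libraries, against 0.04, -0.04 and 0.04 in naive libraries. On a linear scale the ESI+ medians were 1.49, 1.86 and 1.47 times the naive mean. Above the all-gene median stood 62, 53 and 54 of 81 members in ESI+ libraries, against 44, 39 and 44 in naive libraries. In all 3 ESI+ libraries 41 members stood above it, where 25.2% of all genes did, and 13 stood below it, where 27% of all genes did.

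Within the ESI+ group, replicate 1 had the smallest spread over all genes. The interquartile range of deviations over all genes was 0.972 there, 2.18 in ESI+ replicate 2 and 1.88 in ESI+ replicate 3. In ESI+ replicate 1 the left arm had the highest median of all 32 arms, and among the 18 other arms of 50 or more tested genes the highest stood at 0.10. In ESI+ replicates 2 and 3 the left arm ranked 5 among 32, behind arms of fewer than 50 genes, and those 18 arms reached 0.68 and 0.42. The right arm of chromosome XIII, with 172 tested genes, had medians of 0.45, 0.44 and 0.30 in ESI+ libraries, against -0.06, -0.00 and 0.01 in naive libraries.

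**Figure D2:**
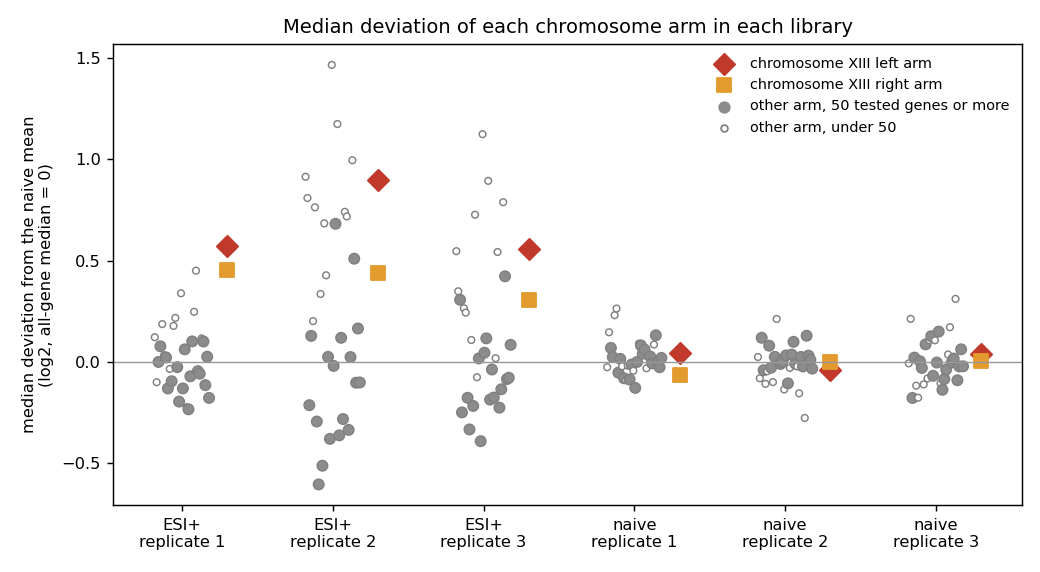
Median deviation from the naive mean (log2, vertical axis) of each of the 32 chromosome arms in each library, with ESI+ libraries on the left and naive libraries on the right. The left arm of chromosome XIII (diamonds) sits at 0.57, 0.90 and 0.56 in ESI+ libraries and within 0.04 of 0 after rounding in naive libraries, and filled circles mark the 18 other arms with 50 or more tested genes.

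In ESI+ libraries rarer transcripts had higher signed deviations than abundant ones, on the arm and over all genes. Across the 81 members the Spearman correlation of deviation with mean abundance was -0.40, -0.82 and -0.33 in the ESI+ libraries, and across all 2844 genes it was -0.30, -0.74 and -0.17. Members share their library and its depth, so these values describe the libraries. When each gene was set against genes of like abundance, in 10 bins of mean level, an alternative chosen after the data were seen, the arm medians were 0.43, 0.83 and 0.63 in ESI+ libraries, against 0.08, -0.08 and 0.07 in naive libraries. On that scale the left arm ranked 3 among the 32 arms in ESI+ replicate 1, behind the right arm of chromosome XIII, and 5 in ESI+ replicates 2 and 3. The right arm stood at 0.55, 0.63 and 0.33 in ESI+ libraries, against -0.03, -0.03 and 0.01 in naive libraries. On the same scale 65, 65 and 54 of 81 members stood above 0 in ESI+ libraries, against 44, 36 and 45 in naive libraries.

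The median member had a log2 fold change of 0.76 between ESI+ and naive libraries, and the median of all tested genes was 0.07. Positive fold changes were found for 59 of 81 members (72.8%), where 52.4% of all genes had one. By edgeR's quasi-likelihood test, adjusted over all tested genes, 14 members rose in ESI+ cells (17.3%), where 5.27% of all genes did. None fell (0 by edgeR and 0 by DESeq2, with 1 and 5 members lower at an unadjusted p under 0.05), where 0.985% of all genes fell by edgeR and 5.12% by DESeq2. DESeq2 called 20 members higher, where 8.49% of all genes were called, and these included all 14. Normalised levels in all 3 ESI+ libraries were above all 3 naive libraries for 31 members, where 15.2% of all genes were so, and below them for 7, where 14.6% of all genes were so. On the right arm 18 of 172 genes rose and 0 fell by edgeR.

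Which members passed depended on single libraries. Without ESI+ replicate 2, edgeR called 0 members. Over all genes, edgeR called 1 higher there. All 14 members kept a positive fold change without it, of 1.20 to 2.19, and the median over them was 1.75. Without naive replicates 1, 2 or 3 the number of members called was 6, 5 and 4, while 72, 64 and 46 of all genes were called higher. Without ESI+ replicate 3 it was 23 members and 327 of all genes, and without both libraries numbered 3 it was 16 members and 183 of all genes. The members' count thus moved with the count over all genes. With robust estimation, a setting tried after the data were seen, edgeR called 16 members higher (6.26% of all genes) and 0 lower (1.65% of all genes). Limma on log2(TPM + 1) called 0 of all genes by default, and with a mean-variance trend, also tried after the data were seen, 11 members higher (4.84% of all genes) and 0 lower (1.12% of all genes). These were mostly other members: of the 14 called by default edgeR, 3 stayed called with limma's trend. The others included MSC1, RPS17A, RPL6A and TCB3, which edgeR did not call. The arm's median fold change relative to all genes was 0.68 with all libraries, 0.53 without ESI+ replicate 2 and 0.82 without both libraries numbered 3. The 67 members that were not called also stood high, with medians of 0.31, 0.42 and 0.31 in ESI+ libraries, against 0.08, -0.01 and 0.07 in naive libraries.

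**Figure D3:**
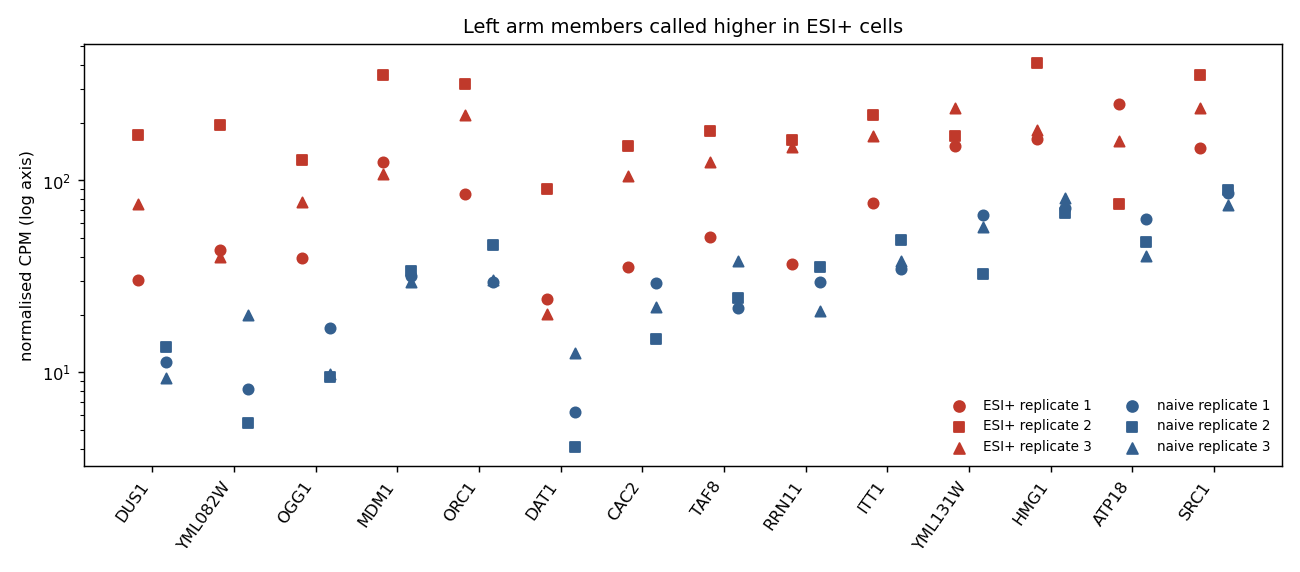
Normalised CPM (log axis, vertical) of the 14 members that rose in ESI+ cells by edgeR, ordered by fold change, with ESI+ libraries in red to the left of naive libraries in blue and 1 symbol per library. For all 14 members the 3 ESI+ points lie above the 3 naive points.

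The upstream windows of the 3 members with the highest fold changes and the 2 with the lowest are shown so that the letters around the start of these genes can be compared. Each is the stretch of 200 bases that ends 100 bases before the start codon, on the gene's own strand, from the RefSeq R64 assembly. The windows are DUS1 (chrXIII:108506-108705, + strand), YML082W (chrXIII:101562-101761, + strand), OGG1 (chrXIII:151571-151770, + strand), TUB1 (chrXIII:99501-99700, - strand) and SML1 (chrXIII:159083-159282, + strand). Capitals mark matches, on either strand, to 8 short motifs. They were searched in all members.
DUS1: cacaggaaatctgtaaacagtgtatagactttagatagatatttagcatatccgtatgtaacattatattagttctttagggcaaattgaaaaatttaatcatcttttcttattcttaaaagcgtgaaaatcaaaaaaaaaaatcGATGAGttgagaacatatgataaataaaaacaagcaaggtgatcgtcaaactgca
YML082W: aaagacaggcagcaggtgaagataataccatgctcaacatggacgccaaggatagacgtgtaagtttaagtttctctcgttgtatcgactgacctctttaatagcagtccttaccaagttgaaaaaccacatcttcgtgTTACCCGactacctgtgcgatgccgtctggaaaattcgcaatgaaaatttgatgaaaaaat
OGG1: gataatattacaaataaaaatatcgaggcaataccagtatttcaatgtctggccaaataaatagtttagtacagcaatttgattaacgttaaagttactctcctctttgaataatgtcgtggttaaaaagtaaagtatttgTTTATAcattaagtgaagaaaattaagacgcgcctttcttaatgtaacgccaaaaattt
TUB1: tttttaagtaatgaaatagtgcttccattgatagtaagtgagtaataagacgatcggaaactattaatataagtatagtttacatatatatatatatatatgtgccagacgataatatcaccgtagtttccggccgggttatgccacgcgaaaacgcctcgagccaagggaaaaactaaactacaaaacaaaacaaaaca
SML1: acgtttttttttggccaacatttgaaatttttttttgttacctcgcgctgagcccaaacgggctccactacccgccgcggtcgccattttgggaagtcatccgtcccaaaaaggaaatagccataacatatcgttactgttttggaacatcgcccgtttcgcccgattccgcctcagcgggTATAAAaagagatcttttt
In these windows DUS1 holds GATGAG, the core of the PAC element of ribosome biogenesis genes, and YML082W holds TTACCCG, a site of the general regulatory factor Reb1. OGG1 and SML1 hold the TATA box core TATAAA, in OGG1 on the opposite strand, and TUB1 holds none of the 8 motifs. The first bases of the DUS1 window lie in the coding span of its neighbour TDA9. TATAAA was found in 28 of 82 members (34.1%), and 34.5% of 6001 windows of the same length across the genome hold it. GATGAG was found in 15 members (18.3%) and 13.8% of all windows, and TTACCCG in 9 members (10.98%) and 7.68% of all windows. The other motifs were the stress element AGGGG (12 members, 14.6%, against 16.3% of all windows), the Yap1 site TTACTAA (5, 6.10% against 4.87%), the sterol element TCGTATA (4, 4.88% against 3.20%), the Pho4 site CACGTG (2, 2.44% against 3.02%) and the cell cycle box ACGCGT (1, 1.22% against 2.92%). Motif matches did not overlap one another in the windows shown.

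Genes of DNA repair and replication gave the most called members relative to their number, 3 of 7 tested, where 5.27% of all genes rose. In this group 0 were called lower, where 0.985% of all genes were. It also had the lowest naive median level of all groups, 16.3 TPM. Against genes of like abundance its ESI+ medians overlapped its naive medians. ORC1, the largest subunit of the origin recognition complex, had 85.1, 317 and 220.4 normalised CPM in ESI+ libraries, against 29.5, 46.2 and 30.3 in naive libraries (log2 change of 2.58 with an SE of 0.52, adjusted p = 0.00907 by edgeR). OGG1, the glycosylase that removes oxidised guanine, had 39.3, 128 and 77.6 normalised CPM in ESI+ libraries, against 17.01, 9.504 and 9.81 in naive libraries (log2 change of 2.73 with an SE of 0.63, adjusted p = 0.0145 by edgeR). CAC2, a subunit of the histone chaperone CAF-1, had 35.5, 151 and 105 normalised CPM in ESI+ libraries, against 29.2, 14.9 and 22.01 in naive libraries (log2 change of 2.11 with an SE of 0.59, adjusted p = 0.0368 by edgeR). In each of the 3 the lowest ESI+ library was replicate 1, and it stood above the highest naive library. RAD52, the recombination mediator, UNG1, the uracil glycosylase, and RAD33, of nucleotide excision repair, did not pass, with fold changes of 0.91, 1.03 and 1.13.

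The arm also holds a pair of ribonucleotide reductase inhibitors, which limit the supply of DNA building blocks. SML1, which acts in unperturbed growth, had 461, 162 and 70.1 normalised CPM in ESI+ libraries, against 859.5, 563 and 269 in naive libraries (log2 change of -1.27 with an SE of 0.62, adjusted p = 0.201 by edgeR). All 3 ESI+ libraries were below naive replicates 1 and 2, but ESI+ replicate 1 was above naive replicate 3, so the groups overlapped and the difference did not pass. HUG1, a DNA damage induced inhibitor next to SML1, was not tested: it had 12, 278 and 0 estimated counts in ESI+ libraries, against 12, 3 and 4 in naive libraries. The 278 counts were in ESI+ replicate 2, and the other libraries held 12 or fewer.

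All 10 genes of transcription and chromatin had positive fold changes, and 3 rose. TAF8, a subunit of the general factor TFIID, had 50.6, 181 and 125 normalised CPM in ESI+ libraries, against 21.5, 24.4 and 37.9 in naive libraries (log2 change of 2.08 with an SE of 0.55, adjusted p = 0.02905 by edgeR). RRN11, a subunit of the RNA polymerase I core factor that starts ribosomal RNA synthesis, had 36.6, 162 and 150.2 normalised CPM in ESI+ libraries, against 29.5, 35.3 and 20.9 in naive libraries (log2 change of 2.04 with an SE of 0.58, adjusted p = 0.0381 by edgeR). DAT1, which binds AT-rich DNA, had 24.2, 90.7 and 20.03 normalised CPM in ESI+ libraries, against 6.24, 4.07 and 12.6 in naive libraries (log2 change of 2.52 with an SE of 0.76, adjusted p = 0.0495 by edgeR). The groups did not overlap in these 3 genes. DAT1 was the member closest inside the threshold, and its level in ESI+ replicate 3 rested on 8 estimated counts. TAF13, also of TFIID, CTK3, of the kinase that phosphorylates RNA polymerase II, and MFT1, of the THO complex, did not pass, at 1.25, 1.74 and 1.41. The lowest of the group were GAL80, the repressor of galactose genes, and YAP1, the oxidative stress factor, at 0.36 and 0.25.

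Among genes of the ribosome, translation and RNA, 2 of 10 rose and both act on tRNA or translation rather than forming the ribosome. DUS1, which makes dihydrouridine in tRNA, had 30.1, 173 and 75.1 normalised CPM in ESI+ libraries, against 11.3, 13.6 and 9.37 in naive libraries (log2 change of 3.06 with an SE of 0.66, adjusted p = 0.0104 by edgeR), the largest fold change of the arm. ITT1, a modulator of translation termination, had 75.9, 219 and 170.3 normalised CPM in ESI+ libraries, against 34.6, 48.9 and 37.9 in naive libraries (log2 change of 1.95 with an SE of 0.50, adjusted p = 0.0281 by edgeR). Neither gene's groups overlapped. TRM9, a tRNA methyltransferase, stood just outside the threshold (log2 change of 1.86 with an SE of 0.64, adjusted p = 0.0732 by edgeR).

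The 4 cytosolic ribosomal protein genes did not pass, and their libraries split within the ESI+ group. RPS1B, of the small subunit, had 2837, 772 and 2434 normalised CPM in ESI+ libraries, against 885, 2258 and 1674 in naive libraries (log2 change of 0.33 with an SE of 0.72, adjusted p = 0.801 by edgeR). RPS17A, also of the small subunit, had 1661, 502 and 2356 normalised CPM in ESI+ libraries, against 452, 1001 and 654 in naive libraries (log2 change of 1.10 with an SE of 0.69, adjusted p = 0.321 by edgeR), and since its copy RPS17B is 96.0% identical, reads may be shared between them. ESI+ replicates 1 and 3 stood above every naive library in both genes, and ESI+ replicate 2 stood below naive replicate 2 in both. RPS18B and RPL6A had fold changes of 0.84 and 0.76. The median deviation of the 4 genes was 1.16, -0.54 and 1.40 in ESI+ libraries, and the 124 cytosolic ribosomal protein genes elsewhere had 0.69, -0.998 and 1.21. FPR3, a nucleolar prolyl isomerase, had 887, 274 and 333 normalised CPM in ESI+ libraries, against 661, 1236 and 1665 in naive libraries (log2 change of -1.25 with an SE of 0.66, adjusted p = 0.235 by edgeR), with overlapping groups.

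Of 8 mitochondrial members, 1 rose. ATP18, a subunit of the ATP synthase, had 251, 75.7 and 160.3 normalised CPM in ESI+ libraries, against 62.7, 47.5 and 40.5 in naive libraries (log2 change of 1.69 with an SE of 0.50, adjusted p = 0.0472 by edgeR). ESI+ replicate 2 was the lowest of its group here, and it was the highest of its group in 12 of the other 13 members that rose. COX14, needed to assemble cytochrome c oxidase, stood just outside the threshold (log2 change of 1.62 with an SE of 0.50, adjusted p = 0.05097 by edgeR), with groups that did not overlap. RCF1, of the respiratory supercomplex, had 1.20, the internal NADH dehydrogenase NDI1 0.74 and the mitochondrial ribosomal protein YML6 0.89, and none passed. COQ5, a methyltransferase of ubiquinone synthesis, had 1194, 313 and 608 normalised CPM in ESI+ libraries, against 1173, 1737 and 1372 in naive libraries (log2 change of -1.02 with an SE of 0.67, adjusted p = 0.341 by edgeR), with overlapping groups.

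Secretion, membranes and transport formed the largest group, with 2 of 20 members higher. MDM1, which tethers the endoplasmic reticulum to the vacuole, had 125, 355 and 108 normalised CPM in ESI+ libraries, against 31.8, 33.9 and 29.6 in naive libraries (log2 change of 2.64 with an SE of 0.52, adjusted p = 0.00907 by edgeR). Its naive libraries lay within a narrow range and its lowest ESI+ library was over 3 times the highest of them. SRC1, of the inner nuclear membrane, had 148, 355 and 238 normalised CPM in ESI+ libraries, against 85.6, 89.6 and 74.5 in naive libraries (log2 change of 1.57 with an SE of 0.46, adjusted p = 0.0433 by edgeR). VPS9, an exchange factor of endosomal transport, and TCB3 had 1.55 and 1.32 with groups that did not overlap, and did not pass. YPT7, the Rab GTPase of vacuole fusion and the member nearest the centromere, had 308, 154 and 333 normalised CPM in ESI+ libraries, against 307, 354 and 218 in naive libraries (log2 change of -0.15 with an SE of 0.48, adjusted p = 0.865 by edgeR), with overlapping groups. The lowest value of this group was GSF2, an endoplasmic reticulum protein that exports hexose transporters, at -0.90.

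Metabolism and redox had the lowest medians of all groups in every ESI+ library, with values of 0.05, -0.83 and -0.06 in ESI+ libraries, against 0.01, 0.01 and 0.05 in naive libraries. It also held abundant genes, with a median of 227 TPM in naive libraries, and against genes of like abundance its medians were 0.17, 0.66 and 0.31 in ESI+ libraries. On that scale the lowest group was cytoskeleton, signalling and proteolysis, at 0.15, -0.29 and 0.12 in ESI+ libraries. HMG1, the rate-limiting HMG-CoA reductase of sterol synthesis, was the member that rose, with 164, 409 and 183 normalised CPM in ESI+ libraries, against 72.3, 67.9 and 81.1 in naive libraries (log2 change of 1.78 with an SE of 0.47, adjusted p = 0.02905 by edgeR). ERG6, a methyltransferase late in the same pathway, had 236, 189 and 210.3 normalised CPM in ESI+ libraries, against 279.8, 436 and 479 in naive libraries (log2 change of -0.91 with an SE of 0.48, adjusted p = 0.232 by edgeR). The 2 sterol genes of the arm thus lay on opposite sides of 0, and neither had overlapping groups. TSA1, the main thioredoxin peroxidase, had 1539.7, 329.7 and 994 normalised CPM in ESI+ libraries, against 1760.5, 1149 and 1426 in naive libraries (log2 change of -0.60 with an SE of 0.69, adjusted p = 0.6103 by edgeR), with overlapping groups. TSL1, of trehalose synthesis, had 1.26, and IMD4, of guanine nucleotide synthesis, had -0.88, both with groups that did not overlap and neither past the threshold.

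None of the 7 tested genes of cytoskeleton, signalling and proteolysis passed (0 higher by edgeR). TUB1, the main alpha-tubulin, had the lowest fold change of the arm, with 619, 192 and 153 normalised CPM in ESI+ libraries, against 678, 838 and 1236 in naive libraries (log2 change of -1.51 with an SE of 0.64, adjusted p = 0.137 by edgeR). Every ESI+ library was below every naive library, and ESI+ replicate 1 was close to naive replicate 1. TUB3, the minor alpha-tubulin, had -0.20, and PRE8, of the 20S proteasome, had -0.89, beside a median of -1.13 over the 25 proteasome genes elsewhere. TEM1, the GTPase of mitotic exit, and CMP2, of calcineurin, had 1.79 and 1.14.

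Of 9 members without an assigned role, 2 rose. YML082W had 43.6, 194 and 40.1 normalised CPM in ESI+ libraries, against 8.22, 5.43 and 19.8 in naive libraries (log2 change of 3.00 with an SE of 0.69, adjusted p = 0.0145 by edgeR). YML131W, the listed member nearest the left end, had 151, 171 and 238 normalised CPM in ESI+ libraries, against 66.3, 32.6 and 57.5 in naive libraries (log2 change of 1.81 with an SE of 0.47, adjusted p = 0.0281 by edgeR). The groups did not overlap in either gene, and ESI+ replicate 3 was the highest library of YML131W. AIM33 stood just outside the threshold (log2 change of 2.32 with an SE of 0.72, adjusted p = 0.05097 by edgeR), and YML096W, which overlaps another gene, had 1.48.

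**Figure D4:**
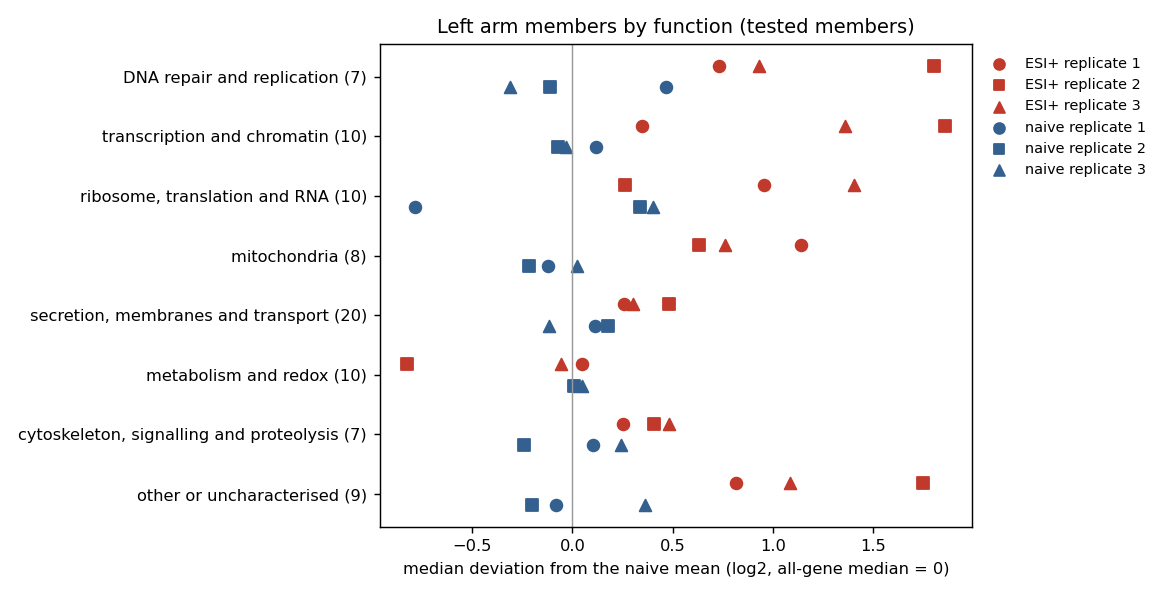
Median deviation from the naive mean (log2, horizontal axis) of the tested members of each function group, with ESI+ libraries in red above naive libraries in blue and 1 symbol per library. All ESI+ medians lie above 0 except those of metabolism and redox in ESI+ replicates 2 and 3, at -0.83 and -0.06.

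By group, the ESI+ medians lay above all 3 naive medians for DNA repair, transcription, mitochondria, secretion, cytoskeleton and the members with no assigned role. DNA repair stood at 0.73, 1.804 and 0.93 in ESI+ libraries, and transcription at 0.35, 1.86 and 1.36. Mitochondrial genes stood at 1.14, 0.63 and 0.76, and secretion at 0.26, 0.48 and 0.30. The ribosome, translation and RNA group stood at 0.95, 0.26 and 1.40 in ESI+ libraries, against -0.79, 0.34 and 0.40 in naive libraries, so these overlapped. Against genes of like abundance that group did not overlap, at 0.85, 1.29 and 1.60 in ESI+ libraries, against -0.47, 0.08 and 0.39 in naive libraries. Metabolism and redox did not overlap there either, at 0.17, 0.66 and 0.31 in ESI+ libraries, against 0.11, -0.17 and 0.06 in naive libraries. On that scale the cytoskeleton group did overlap, at 0.15, -0.29 and 0.12 in ESI+ libraries, against -0.04, -0.19 and 0.24 in naive libraries. DNA repair then also overlapped, at 0.33, 0.97 and 0.97 in ESI+ libraries, against 0.42, 0.06 and -0.26 in naive libraries. On the log2(TPM + 1) scale the cytoskeleton medians overlapped as well, at 0.20, 0.44 and 0.45 in ESI+ libraries, against 0.07, -0.23 and 0.25 in naive libraries. These are medians of 7 to 20 genes in 1 library each, and no difference between groups was tested. Repair and transcription members were also rare transcripts, with naive medians of 16.3 and 26.1 TPM, against 223 TPM for ribosome, translation and RNA.

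Along the arm the shift was present in most stretches and had no clear gradient. In 4 blocks of 20 or 21 members each, running from the left end to the centromere, the medians in ESI+ replicate 1 were 0.31, 0.89, 0.39 and 0.51. In ESI+ replicate 2 they were 1.08, 1.01, 1.19 and 0.78, and in ESI+ replicate 3 they were 0.79, 1.00, -0.29 and 0.36. The naive blocks lay between -0.12 and 0.32. The second block, TSL1 to COG8, was at or above 0.89 in every ESI+ library, and the third, DAK1 to VPS71, was below 0 in ESI+ replicate 3. From the left end on, the blocks held 5, 4, 4 and 1 of the members that rose. The 4 members nearest the centromere, ERG6 to YPT7, had medians of -0.08, -0.97 and -0.16 in ESI+ libraries. Against genes of like abundance these medians were 0.08, 0.67 and 0.04.

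Running medians of 9 neighbouring members showed the same pattern in finer steps. They were above 0 in 73, 65 and 62 of 73 positions in ESI+ libraries, against 44, 30 and 42 in naive libraries. ESI+ replicate 1 ranged from 0.05 around ERV25 to 1.13 around CPR3. ESI+ replicate 2 ranged from -0.55 around CMP2 to 2.32 around YML108W, and ESI+ replicate 3 from -1.08 around FPR3 to 1.74 around RPS1B. The lowest positions of ESI+ replicates 2 and 3 were thus inside the arm and at different genes, but both libraries were below 0 from CMP2 to GAL80. Around SPC2 they stood at -0.55 and -0.61, and against genes of like abundance at 0.12 and -0.70. Windows of 9 members could not be centred on the outermost members of either end. Across 80 pairs of adjacent members Pearson's r of their deviations was 0.08, -0.02 and 0.04 in ESI+ libraries, and across 2827 adjacent pairs of all listed genes it was 0.08, 0.11 and 0.05. The Spearman correlation with distance from the left end, across 81 members, was -0.10, -0.12 and -0.18.

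**Figure D5:**
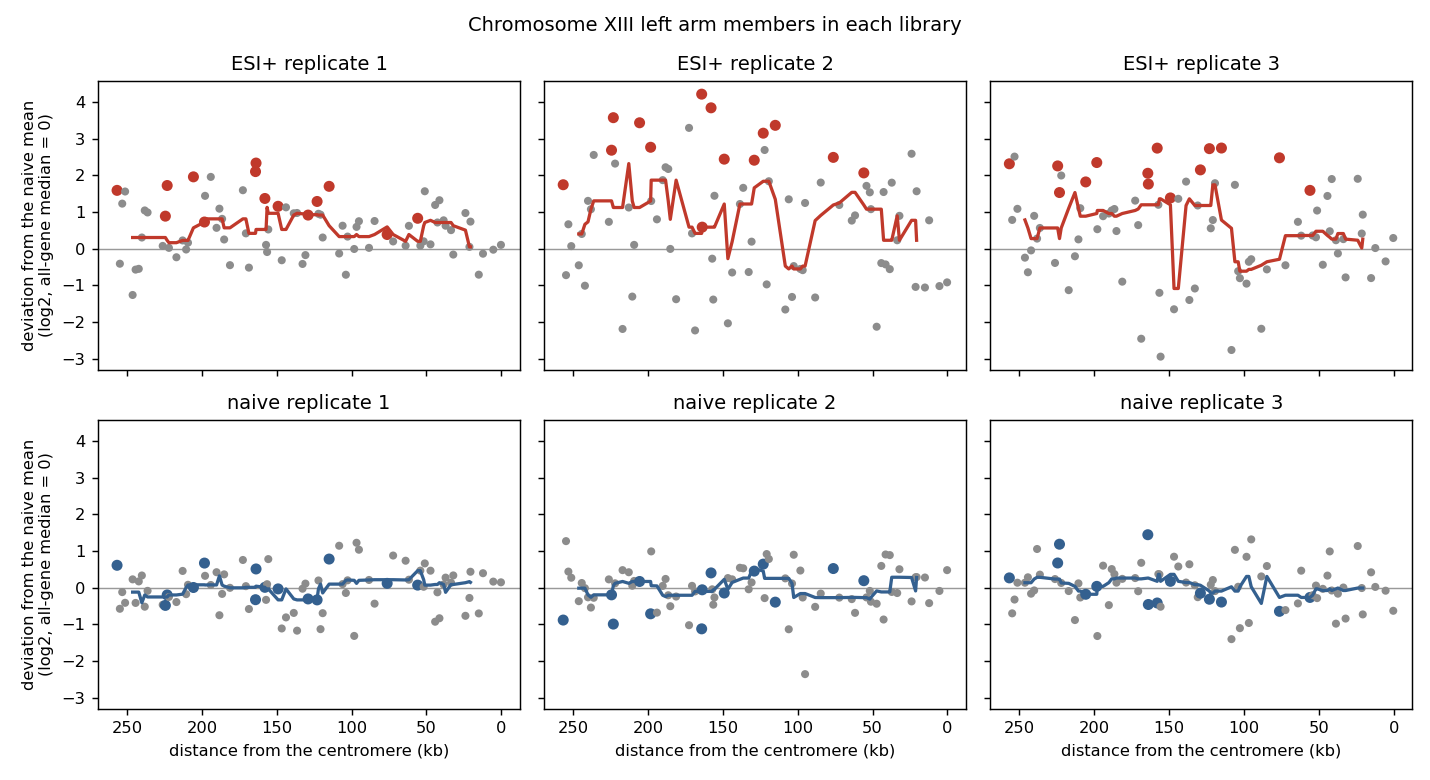
Deviation from the naive mean (log2, vertical axis) of each tested member against its distance from the centromere (kb, horizontal axis, left end on the left) in each library, ESI+ above and naive below. Lines are running medians of 9 members and large coloured points are the 14 members that rose, and the running median is above 0 in 73, 65 and 62 of 73 positions in ESI+ libraries and 44, 30 and 42 in naive libraries.

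Of the 14 members that rose, 13 were rare transcripts by TPM, with naive means of 3.66 to 30.8 TPM, and ATP18 was abundant on that scale, at 592 TPM. In normalised CPM, which is not corrected for length, the naive mean of ATP18 was 50.2, below HMG1 at 73.7 and SRC1 at 83.3. The median level of the 14 was 11.1 TPM in naive libraries, against 76.4 TPM for the 67 members that were not called and 66.4 TPM for all listed genes. The test used these same levels, so the 2 measures are not independent. Their coding spans had a median of 1466 bases, against 946 bases for the members not called and 1047 for all listed genes. Deviations also followed isoform length in some libraries. Against genes of like abundance, Spearman's correlation with length over all genes was 0.03, 0.47 and -0.03 in ESI+ libraries. In naive libraries it was -0.31, -0.10 and 0.35. Across the 81 members it was 0.10, 0.64 and 0.18 in ESI+ libraries, against -0.17, -0.14 and 0.27 in naive libraries. GC content differed little, at 40.0, 40.8 and 40.2%. Of the 14, 9 lie on the + strand and 5 on the - strand, among 42 and 39 tested members. The median member of the + strand stood at 0.61, 1.10 and 0.68 in ESI+ libraries and that of the - strand at 0.39, 0.73 and 0.53.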

How the data were processed

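Messenger RNA was measured in 3 ESI+ and 3 naive libraries. Per the submitters' processing notes, reads were quantified with kallisto 0.43.1 and the build was R64; per the file headers, the deposited values are estimated counts and TPM for 17906 isoforms. Estimated counts and TPM were summed to 2850 genes, and counts were rounded to whole numbers. The members, role groups and motifs were chosen with earlier results of these data known.

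Genes passing filterByExpr (minimum count 10; 2844 genes, 81 of 82 members) were scaled by TMM and compared with edgeR 4.0.16 (glmQLFit with default settings and glmQLFTest, R 4.3.3); p was adjusted by Benjamini and Hochberg's method across these genes, with a threshold of 0.05. The SE is the fold change divided by the square root of F. A first run with these settings was followed by robust estimation, which matched the earlier processing of these data, and the default was restored as the fit to report because it was the one planned; the robust counts are given under the alternatives. Deviations used log2 CPM with a prior count of 2. CPM is scaled to the TMM library sizes. Values in every library are given for members past the threshold (up to 15), the 5 highest and 5 lowest fold changes (mean of at least 5 CPM), the 6 most abundant and the 2 end members. The fit was tested on simulated data. Near-identical copies (at least 95% identity over 50% of the coding sequence) were found with blastn 2.17.0. Alternatives used DESeq2 1.42.0, limma 3.58.1 on log2(TPM + 1) and log2(TPM + 0.1) with TPM of at least 1 in 3 libraries, other filters, the replicate number as a block, and libraries left out. The replicate numbers were not used as a pairing in the reported fit, and depth ranged from 316485 to 5934050 counts per library.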

Additional observations from a re-analysis of the deposited data

How the results depend on the processing

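The arm's median fold change relative to all genes, 0.68, kept its direction under all alternatives run, between 0.52 (ESI+ replicate 1 alone against naive) and 0.82 (without both libraries numbered 3). The number of members called higher, 14 by default edgeR, was less stable. It was 16 with DESeq2 size factors (171 of all genes), 20 with DESeq2 (242), 13 with at least 50 counts in 3 libraries (131), 14 with no filter (150) and 16 without both libraries numbered 3 (183), beside 150 of all genes in the reported fit. It was 0 with limma on log2(TPM + 1) and on log2(TPM + 0.1), where 0 of all genes were called. It was 0 with ESI+ replicate 1 alone, whose spread is pooled from the naive libraries. Among settings chosen after seeing the data, robust estimation in edgeR gave 16 (6.26% of all genes), limma with a trend 11 (4.84%) and limma with a trend and robust estimation 12. Robust edgeR kept all 14 members of the reported fit, limma with a trend kept 3, and limma with a trend and robust estimation kept 5. Leaving out 1 library gave 0 to 23 members higher (1 to 327 of all genes) and 0 to 1 lower. The cause of these differences was not tested. The replicate block gave 7 higher (68 of all genes). The deviations of same-numbered libraries had r = -0.06, -0.21 and -0.04. Whether same-numbered libraries share an origin was not tested, and both libraries numbered 3 had the high URA3 values. The per-library medians kept their values within the spread between replicates except when genes were split at the median abundance. Members on each side of it were set against all genes on the same side. Above it the medians were then 0.33 and 0.49 in ESI+ replicates 1 and 2, and 0.11 and 0.023 in naive replicates 1 and 2. Below it they were 0.12, -0.10 and -0.085 in naive replicates 1, 2 and 3. With the median of all tested genes set to 0, the medians above the split were 0.11, -0.45 and 0.26 in ESI+ libraries. Those below it were 0.75, 1.86 and 1.00. Of the genes with values in every library, TSA1 and YPT7 changed sign. TSA1 had 0.074 with ESI+ replicate 1 alone. YPT7 had 0.55 with limma at either pseudocount and with either added setting, a scale on which the median of all genes was 0.64, so that YPT7 stayed below that median, as it did in the reported fit. It had 0.058 with ESI+ replicate 1 alone, and -0.35 to 0.13 with 1 library left out. Depth limits the rare members: ESI+ replicate 3 had 316485 counts in all, and its 0 counts for HUG1 could not be told apart from a low level.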
